A study of Mus musculus with 18 samples.

Results

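The comparison described here is an interaction. It asks how far the response of mouse cells that lose both copies of Ddx41 exceeds, or falls short of, the response of cells without a floxed copy to the same inducer. For each gene, the change from ethanol to 4-hydroxytamoxifen (4OHT) in WT cells was subtracted from the same change in FF cells. It uses 12 of the 18 RNA-seq libraries, 3 in each of 4 groups and lettered A to C. WT_EtOH and WT_4OHT are cells of genotype +/+, given ethanol or 1 µM 4OHT for 48 h. FF_EtOH are flox/flox cells given ethanol, and FF_4OHT are flox/flox cells given 4OHT, labelled -/- after deletion. All 4 groups share the rest of the system. They are lineage-negative bone marrow cells immortalized with a retrovirus that carries MLL-AF9, a leukemia fusion gene, grown with IL-3, SCF and IL-6, and they express a Cre recombinase from the Rosa locus that 4OHT activates. Neither the number of lines per genotype nor the origin of libraries A to C in separate cultures is stated in the labels. A p-value here thus measures only the scatter of these libraries, possibly technical, and an effect of genotype cannot be told apart from one of the line.

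DDX41 is a DEAD-box RNA helicase that associates with the spliceosome, and it is mutated in inherited and sporadic myeloid neoplasms. It has also been studied as a sensor of cytosolic DNA and as a factor acting on R-loops, in which RNA stays paired with DNA. A control line treated in the same way is needed because 4OHT binds estrogen receptors and active Cre can cut chromosomal DNA at sites that resemble its target. Subtracting the WT response removes what treatment does to cells of both lines, to the extent that both lines respond alike.

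Before the results, the libraries were set against their labels. Totals ran from 24730213 to 39459035 counts. On an axis from the WT line (0) to the FF line (1), positions were 0.898 for the library labelled WT_4OHT C and 0.0528 for that labelled FF_EtOH C, each with the other line. The other 5 WT libraries lay between -0.0155 and 0.102 and the other 5 FF libraries between 0.682 and 1.13. The WT end was set by the A and B libraries of both WT groups. The FF end was set by FF_EtOH A and B and FF_4OHT A to C, leaving out the library being placed. The axis thus also holds the 4OHT response of FF: FF_EtOH A and B were at 0.682 and 0.761, and FF_4OHT at 0.991 to 1.13. Eif2s3y, a Y-linked gene for a translation factor, was at 0 in the FF libraries except the library labelled FF_EtOH C, which had 82.6 CPM (counts scaled to library size with TMM normalization). Among WT libraries it was at 65.1 to 96.7 CPM except in that labelled WT_4OHT C, where it was at 0. Ddx3y, another Y-linked gene, was at 49.6 to 104 CPM in all 12 libraries. Tgm2, transglutaminase 2, lay at 17.0 to 26.8 CPM in the 3 FF_4OHT libraries and in WT_4OHT A and B, but at 466 CPM in the library labelled WT_4OHT C. In ethanol it lay at 210.5 to 435 CPM except in the library labelled WT_EtOH C, where it was at 24.9 CPM. Results are therefore given over all 12 libraries, without both doubtful libraries, those labelled FF_EtOH C and WT_4OHT C (10 libraries), and where it matters also without WT_EtOH C (9 libraries).

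The targeted gene was examined first. Ddx41 (chromosome 13, 55530410 to 55536658, minus strand, GRCm38) was at 76.8, 78.5 and 87.8 CPM in WT_EtOH A to C and at 73.6, 87.2 and 90.3 CPM in WT_4OHT A to C. It was at 110.3, 80.2 and 70.5 CPM in FF_EtOH and at 14.4, 16.2 and 17.5 CPM in FF_4OHT. The 3 FF_4OHT libraries lay far below the other 9, which overlapped one another. The FF response was lower than the WT response by a log2 difference of -2.49 ± 0.22 (SE; edgeR adjusted p = 0.00074), made of -2.44 in FF and 0.05 in WT. The difference was -2.53 over 10 libraries and -2.60 over 9. Counts per gene do not show which exons were read, so the fraction of recombined alleles is not known from them.

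Dhx16, a DEAH-box helicase of the spliceosome (chromosome 17, 35879819 to 35892670, plus strand), gave the only adjusted p as small as that of Ddx41. WT_EtOH A to C had 114, 108 and 132 CPM, and WT_4OHT A to C had 113, 124 and 127 CPM. FF_EtOH A to C had 126.5, 108.4 and 109 CPM, and FF_4OHT A to C had 37.8, 37.5 and 34.8 CPM. Again the FF_4OHT libraries stood apart from 9 overlapping ones. The log2 difference was -1.68 ± 0.14 (edgeR adjusted p = 0.00074), and it was -1.66 over 10 libraries and -1.75 over 9. When each of the 12 libraries was left out in turn, Ddx41 stayed between -2.59 and -2.27 and Dhx16 between -1.74 and -1.59, with adjusted p-values of at most 0.00567.

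**Figure D1:**
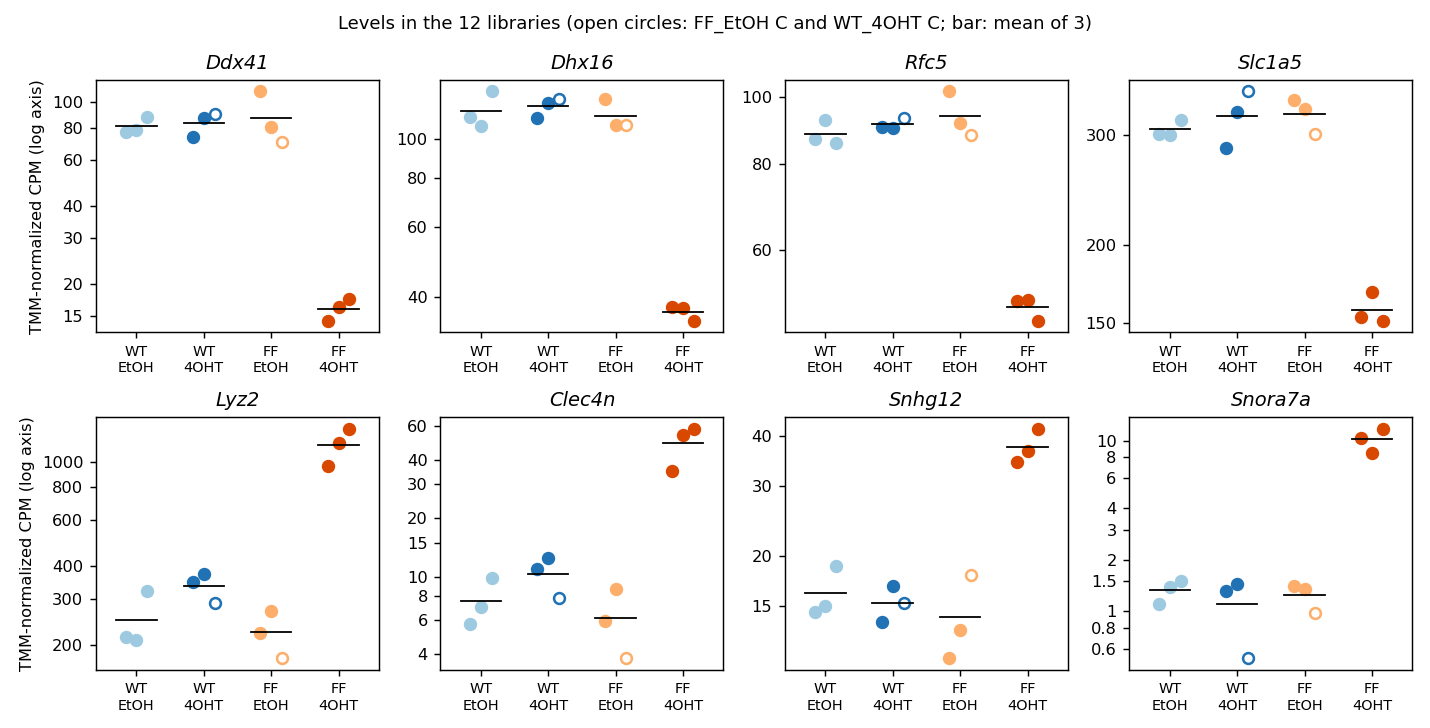
TMM-normalized CPM (log axis) of 8 genes in the 12 libraries, by group; open circles are those labelled FF_EtOH C and WT_4OHT C, and bars are means of 3. In each panel the 3 FF_4OHT libraries lie apart from the other 9, as for Ddx41 at 14.4 to 17.5 CPM against 70.5 to 110.3 CPM.

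Over all 12 libraries, 12361 genes passed the count filter. The FF response was above the WT response at 126 genes (1.02% of those tested) and below it at 334 (2.70%), which makes 460 calls (3.72%) in edgeR at an adjusted p of 0.05. The unadjusted p was under 0.05 at 2435 genes. The FF response taken alone called 1007 genes higher (8.15%) and 1279 lower (10.3%), 18.5% in all. The WT response taken alone called 0 genes in edgeR, with 215 at an unadjusted p under 0.05, 0 in limma voom and 3 in DESeq2. Those 3 were Pea15a, Eya1 and Psma8, named after their values were seen. Their DESeq2 log2 responses were 25.61, 26.25 and 22.13, and neither edgeR nor limma voom called them. Values of that size are not read here as responses of WT cells. Both single responses share their libraries with the interaction, so their values describe it and are no separate evidence.

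Among the 126 higher calls the median log2 response was 1.24 in FF and 0.01 in WT, and 78 of them differed by at least 2-fold. Among the 334 lower calls the medians were -0.77 and 0.05, and 87 differed by at least 2-fold. The higher calls were thus fewer but more often large. The WT response had an unadjusted p under 0.05 at 6 of the 126 and at 2 of the 334. In the fits over 10 and 9 libraries it was under 0.05 at 20 of 143 and 29 of 159 higher calls, and at 4 of 265 and 19 of 392 lower calls. Of the lower calls 323 were protein-coding genes in GENCODE M21, against 97 of the higher calls. The higher calls also included 5 of 70 tested snoRNA genes (7.14%) and 9 of 334 long noncoding RNA genes (2.69%), beside 1.02% of all tested genes. These counts cover symbols that matched exactly 1 gene there. Some snoRNA genes, the called Snora69 among them, passed the count filter only through their level in FF_4OHT and had to differ. Over all tested genes 256 passed in that way. Among the other 12105, 123 were called higher and 334 lower.

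**Figure D2:**
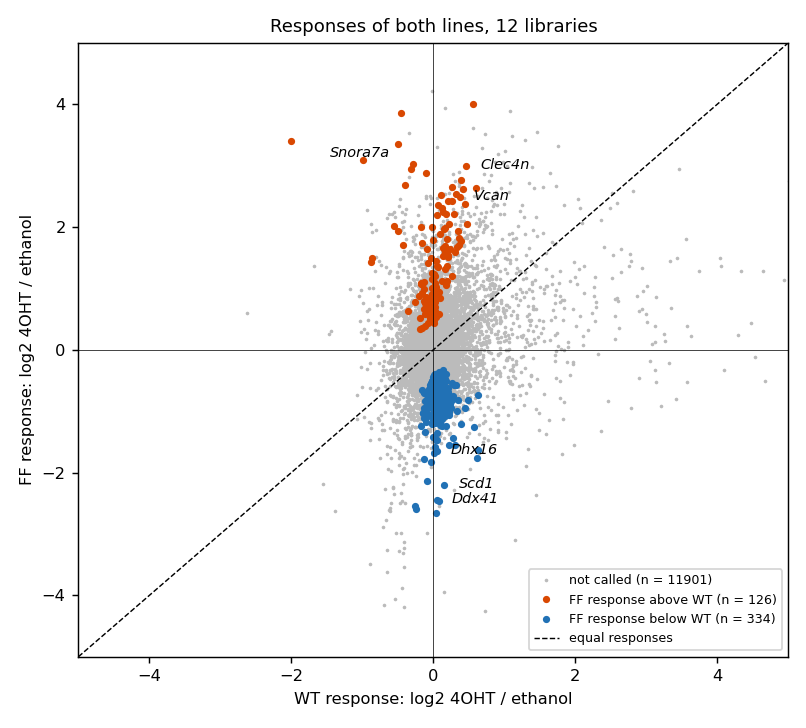
Response of FF (vertical) against WT (horizontal) for each tested gene, as log2 of 4OHT over ethanol over 12 libraries; colored points are the 126 genes above and the 334 genes below WT, and the dashed line marks equal responses. The colored points spread along the vertical axis and stay near 0 on the horizontal axis; 35 uncalled genes lie outside the axes.

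The number of calls depended on single libraries. Left out 1 at a time, it was 154, 134 and 337 without WT_EtOH A, B and C, and 416, 159 and 261 without WT_4OHT A, B and C. It was 332, 276 and 459 without FF_EtOH A, B and C, and 235, 147 and 110 without FF_4OHT A, B and C. Each of these fits has 1 group of 2 libraries. Where a gene below kept its call in each of the 12 such fits, it is said to have held without any library.

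Over the 10 libraries other than those labelled FF_EtOH C and WT_4OHT C, 143 of 12481 genes were called higher (1.15%) and 265 lower (2.12%), 3.27% in all. Of the 460 and 408 calls of both fits, 277 were shared, which is 60.2% of the former and 67.9% of the latter. All 460 kept their sign over 10 libraries and had an unadjusted p under 0.05 there. Over 9 libraries, without WT_EtOH C as well, 159 genes were called higher (1.28%) and 392 lower (3.15%), 4.42% in all, and the WT response alone called 9 genes, all lower (0.0723%). The 265 genes called in all 3 fits comprised 72 higher and 193 lower.

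Genes that differ between the lines show what the doubtful libraries do to this comparison. Pecam1, an endothelial and leukocyte adhesion molecule, was at 61.6 to 66.8 CPM in WT libraries other than the library labelled WT_4OHT C, which had 209.5 CPM. In FF it was at 118 to 216 CPM other than in the library labelled FF_EtOH C, which had 64.0 CPM. Its log2 difference was -1.10 over 12 libraries (edgeR adjusted p = 0.417) and -0.65 over 10 (0.0456). Slfn2, a schlafen family gene, likewise had 18.5 and 22.0 CPM in FF_EtOH A and B and the library labelled WT_4OHT C had 20.5 CPM, against 59.2 to 89.3 CPM in the other WT libraries and 63.1 CPM in the library labelled FF_EtOH C. In FF_4OHT it was at 73.7 to 105.6 CPM. Its difference of 1.57 had an adjusted p of 0.288 over 12 libraries, and its difference of 1.94 had one of 0.00889 over 10.

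Of the 5 largest calls that appear only without those libraries, Slfn2, Fblim1 (1.83), the interleukin-10 receptor chain Il10ra (1.76) and Emr1 (1.72), the older symbol of the macrophage marker Adgre1, were higher and Nav2 (-1.88) was lower. The 5 largest calls present over 12 libraries and lost over 10 were the mannose receptor Mrc1 (2.21), Phlda3 (2.04), the chemokine Ccl6 (1.93), Slfn5 (1.62) and the receptor phosphatase Ptpru (-1.71). Their adjusted p-values over 10 libraries lay between 0.0516 (Slfn5) and 0.0956 (Mrc1). They moved across the threshold, and their differences over 10 libraries stayed between 1.37 and 1.84 in the higher genes and at -1.74 in Ptpru. None of these 5 held without any library. Leaving out FF_4OHT B or C, WT_EtOH A or B, or WT_4OHT B ended the call over 12 libraries in each of Mrc1, Phlda3, Ccl6, Slfn5 and Ptpru.

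**Figure D3:**
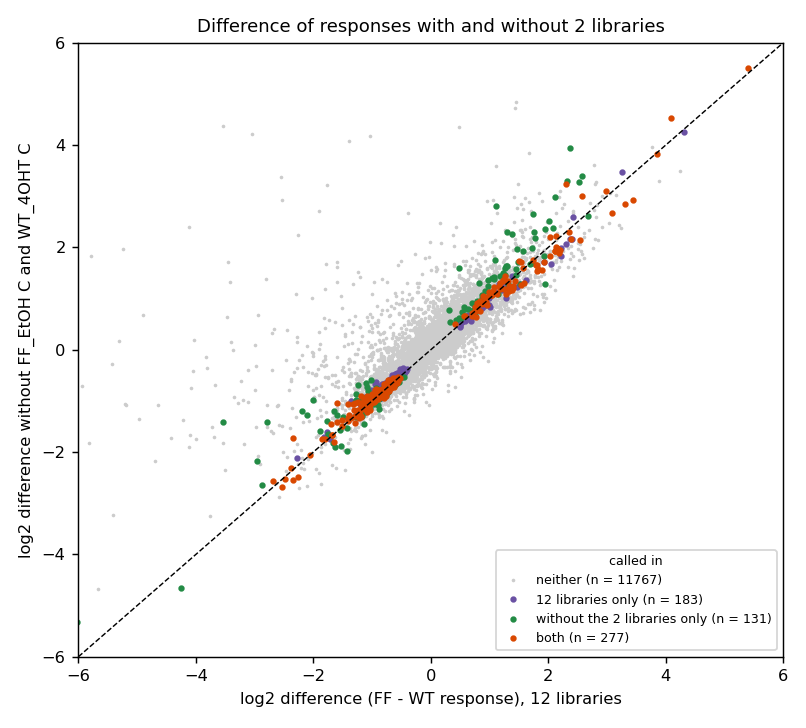
Log2 difference of the FF and WT responses over 12 libraries (horizontal) and over 10, leaving out those labelled FF_EtOH C and WT_4OHT C (vertical), for genes tested in both fits; colors mark the 277 genes called in both, the 183 called over 12 libraries only and the 131 called over 10 only. Called points follow the dashed line of equal values; 22 genes lie outside the axes.

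Of 70 tested small nucleolar RNA (snoRNA) genes whose symbols matched exactly 1 gene of GENCODE M21, 5 were called higher (7.14%) and 0 lower. Over all tested genes 1.02% were called higher and 2.70% lower. Snora7a, Snora70, Snora69 and Snord32a are 4 of these 5. Some snoRNA genes passed the count filter only through FF_4OHT, as given below. SnoRNAs guide chemical modification of ribosomal and spliceosomal RNA: H/ACA snoRNAs guide pseudouridylation and end in an ACA box, and C/D snoRNAs guide ribose methylation. Nearly all are cut from introns of host transcripts, many of them ribosomal protein genes or noncoding host genes. Snora16a is not among the 70, as its symbol did not match exactly 1 gene. The 4 called members of the H/ACA list, Snora16a among them, are shown. They come from GENCODE M21 (GRCm38), written 5′ to 3′ with T for U, and the capitals mark the ACA box, which in each ends 3 bases before the 3′ end.
Snora7a (chr6:115807975-115808114, minus strand): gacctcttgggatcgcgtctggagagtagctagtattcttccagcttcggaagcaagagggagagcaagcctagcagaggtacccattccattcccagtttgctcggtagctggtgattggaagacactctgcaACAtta
Snora70 (chrX:74272484-74272620, plus strand): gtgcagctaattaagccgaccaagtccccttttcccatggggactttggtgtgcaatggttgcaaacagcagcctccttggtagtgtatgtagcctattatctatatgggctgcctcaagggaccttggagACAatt
Snora69 (chrX:37082912-37083042, minus strand): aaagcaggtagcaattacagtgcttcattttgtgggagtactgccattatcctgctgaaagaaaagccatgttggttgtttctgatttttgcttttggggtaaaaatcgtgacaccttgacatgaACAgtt
Snora16a (chr4:132309465-132309600, plus strand): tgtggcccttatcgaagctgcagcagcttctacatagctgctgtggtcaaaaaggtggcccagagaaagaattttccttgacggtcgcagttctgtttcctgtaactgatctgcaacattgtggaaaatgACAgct

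Snora7a was at 1.10, 1.39 and 1.51 CPM in WT_EtOH A to C, at 1.31, 1.45 and 0.529 CPM in WT_4OHT, at 1.41, 1.36 and 0.981 CPM in FF_EtOH and at 10.3, 8.50 and 11.8 CPM in FF_4OHT. These levels rest on 123, 113, 101 and 817 counts per group. The FF_4OHT libraries lay above the other 9, and the log2 difference was 3.31 ± 0.48 (edgeR adjusted p = 0.00839), 2.85 over 10 libraries. Snora70 was at 1.14 to 3.55 CPM in the other 9 libraries and at 12.4, 13.8 and 18.5 CPM in FF_4OHT (3.08 ± 0.58, adjusted p = 0.0178). Snora16a rose to 3.20 to 4.11 CPM from 0.161 to 0.795 CPM elsewhere (2.99 ± 0.54, adjusted p = 0.0157). Snora69 rests on few reads, with 21, 12 and 13 counts in the other groups and 111 in FF_4OHT (4.09 ± 0.69, adjusted p = 0.0121). Snora7a and Snora69 held without any library. The adjusted p of Snora70 reached 0.0606 without WT_EtOH A, WT_EtOH B or FF_4OHT C, and that of Snora16a 0.0583 without WT_EtOH B or FF_4OHT C, as the highest of these fits.

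Of 36 H/ACA symbols 27 passed the count filter and 4 were called higher, against 1.02% of all genes. Of 74 C/D symbols 44 passed and 1 was called, Snord32a (2.36 ± 0.43, adjusted p = 0.0151), which held without any library. It was at 0.371 to 0.985 CPM in the other 9 libraries and at 2.30, 1.53 and 1.64 CPM in FF_4OHT. Some members passed the filter only through their level in FF_4OHT, 4 of the H/ACA members (Snora69 among them) and 11 of the C/D members, and these had to differ. Among the 23 H/ACA members that reached the filter without FF_4OHT, 3 were called, and the median log2 difference was 1.44. Among 33 such C/D members it was 1.22, beside -0.03 over all genes of that kind. Over 10 libraries 5 H/ACA and 3 C/D members were called, including all 5 of the 12-library calls. The summed level of the H/ACA list was 18.7 to 32.8 CPM in the other 9 libraries and 77.5 to 87.1 CPM in FF_4OHT.

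Host genes were compared with the snoRNAs inside them. Of the tested snoRNAs, 62 lie within a single tested host gene on the same strand, and 49 of these reached the filter without FF_4OHT. Among the 49, 46 had a positive difference. For 23 of them the host is a ribosomal protein gene: their median difference was 1.43, while that of their 18 hosts was 0.17 and 0 of these hosts were called. Snora7a lies within Rpl32, whose difference was 0.25 (edgeR adjusted p = 0.347). Snora70 lies within Rpl10 (0.09, 0.846) and Snora69 within Rpl39 (0.40, 0.433). Snora16a is outside the 62, as its symbol did not match exactly 1 gene. Its coordinates lie within Snhg12 on the same strand, a noncoding host that was itself called higher (1.50, 0.0121). Of 8 noncoding hosts 5 were called higher, beside 1.02% of all genes, and the median of the 8 was 1.15. The 12 snoRNAs inside them that reached the filter without FF_4OHT had a median of 1.80. By annotation, 28 of the 62 were intronic in their host, Snora69 among them, and so were 14 of the 29 with a ribosomal protein host. Snora7a and Snora70 were classed as exonic, overlapping host exons. The processing notes do not say how a read matching both a snoRNA and its host was counted. These counts thus cannot separate snoRNA reads from host reads, whether from introns or exons.

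Of the list of named snoRNA host genes, 5 of 14 tested members were called higher (35.7%, beside 1.02% of all genes). Snhg12, a long noncoding RNA that hosts several H/ACA snoRNAs, was at 11.1 to 18.9 CPM in the other 9 libraries and at 34.3, 36.7 and 41.7 CPM in FF_4OHT (1.50 ± 0.25, edgeR adjusted p = 0.0121). Snhg3 rose from 23.7, 29.8 and 26.1 CPM in FF_EtOH to 59.9, 58.9 and 49.3 CPM in FF_4OHT (1.25 ± 0.19, adjusted p = 0.0088). Gas5, a growth-arrest host transcript, had 321 to 364 CPM in FF_4OHT and 145.5 to 211 CPM elsewhere (1.12 ± 0.19, adjusted p = 0.0121). Dancr, a noncoding host outside that list, rose to 14.7 to 17.4 CPM from 2.99 to 6.10 CPM elsewhere (2.14 ± 0.30, adjusted p = 0.00762). Snhg12, Snhg3, Gas5 and Dancr held without any library. Snhg1 (1.89 ± 0.36, adjusted p = 0.0191) lost its call without WT_EtOH A or B, WT_4OHT B, or FF_4OHT B or C, with an adjusted p of up to 0.0617. Snhg4 was called over 12 libraries and not over 10.

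Precursor ribosomal RNA also differed among the FF_4OHT libraries. Rn45s was at 5881, 17990 and 40650 CPM in FF_4OHT A, B and C and at 2506 to 6331 CPM in the other 9. Mir6236, an annotated microRNA gene, was at 74.6, 133 and 247 CPM in those 3 libraries and at 29.1 to 51.6 CPM elsewhere (2.02 ± 0.50, edgeR adjusted p = 0.049). Both were highest in FF_4OHT C. Snora7a spanned 8.50 to 11.8 CPM over the same 3 libraries. Whether Rn45s has a part in any of these results was not tested. Leaving out any library other than FF_EtOH C or FF_4OHT A ended the call of Mir6236, with an adjusted p of up to 0.109.

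Genes that p53 is known to induce were higher where they were called: 6 of 34 tested members (17.6%, beside 1.02% of all genes) and 0 lower. Of the 34, 27 were above 0, with a median log2 difference of 0.56, beside 5939 of 12361 and -0.02 over all tested genes. The count filter was passed only through FF_4OHT by 1 member. Among the other 33, 26 were above 0 and 6 were called higher. Cd80, a T cell costimulatory ligand, was at 2.29 to 5.14 CPM in the other 9 libraries and at 12.7, 11.03 and 12.9 CPM in FF_4OHT (2.02 ± 0.34, edgeR adjusted p = 0.0121), and it held without any library. Zmat3, an RNA-binding zinc finger protein, was at 51.4, 51.2 and 66.6 CPM in FF_4OHT and at 16.9 to 28.2 CPM elsewhere (1.33 ± 0.27, adjusted p = 0.0228). Phlda3, an inhibitor of AKT, rose from 6.44, 4.66 and 3.09 CPM in FF_EtOH to 30.2, 25.4 and 32.7 CPM in FF_4OHT, and lay at 3.92, 4.04 and 9.09 CPM in WT_EtOH and 9.14, 10.2 and 6.54 CPM in WT_4OHT (2.04 ± 0.48, adjusted p = 0.0423). Its WT levels also spread, and over 10 libraries the adjusted p was 0.0687. Over 9 libraries the difference was 1.15 (adjusted p = 0.0345), with a WT response of 1.25 (0.06). Ccng1, cyclin G1, rose to 385 to 410 CPM from 189 to 293 CPM elsewhere (0.77 ± 0.18, adjusted p = 0.043). Cdkn1a, the cell-cycle inhibitor p21, and Mdm2, the ubiquitin ligase of p53, did not pass (0.62 and 0.76, adjusted p = 0.320 and 0.0845). Zmat3 lost its call without WT_EtOH B or FF_4OHT C (up to 0.0718). Phlda3 lost it without any library except FF_EtOH A (up to 0.114), and Ccng1 without any except WT_4OHT A or C (up to 0.112). Over 10 libraries 4 members were called, 3 of them the same.

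Among 27 tested members of the BCL2 family and the caspases, 2 were called lower (7.41%, beside 2.70% of all genes) and 0 higher. Their median was 0.13. Bid, which links death receptors to mitochondria, fell to 75.5 to 93.4 CPM from 110.0 to 134 CPM elsewhere (-0.56 ± 0.14, edgeR adjusted p = 0.049). Over 10 libraries its adjusted p was 0.0642, and leaving out any library except FF_EtOH C ended its call.

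Monocyte and macrophage genes had 8 higher calls among 27 tested members (29.6%, beside 1.02% of all genes) and 0 lower. Of the 27, 24 were above 0, beside 5939 of 12361 tested genes, and the median was 0.76. The count filter was passed only through FF_4OHT by 1 member, which had to lie high there. Among the other 26, 23 were above 0 and 8 were called higher, with a median of 0.84. Lyz2, the lysozyme of mature myeloid cells, was at 215, 209 and 320.3 CPM in WT_EtOH, 347.5, 372 and 289 CPM in WT_4OHT, 222, 270.5 and 178 CPM in FF_EtOH and 961, 1176 and 1335 CPM in FF_4OHT. The difference was 1.93 ± 0.28 (edgeR adjusted p = 0.00843). The FF response was 2.37, and the WT response of 0.44 did not pass (adjusted p = 0.983). Over 10 and 9 libraries the Lyz2 difference was 1.72 and 1.49, with WT responses of 0.52 and 0.73 that did not pass. Clec4n, which encodes the C-type lectin Dectin-2, was at 3.81 to 12.4 CPM in the other 9 libraries and at 35.2, 53.6 and 57.8 CPM in FF_4OHT (2.54 ± 0.44, adjusted p = 0.0121). Ctss, the lysosomal protease cathepsin S, rose to 125 to 167 CPM from 36.0 to 79.8 CPM (1.81 ± 0.30, adjusted p = 0.0121). Lyz2, Clec4n and Ctss held without any library. Over 9 libraries the differences of Clec4n and Ctss were 1.89 and 1.46, with WT responses of 0.85 and 0.46 that did not pass. The list's median WT response was 0.14, 0.18 and 0.36 over 12, 10 and 9 libraries. Its median difference was 0.76, 0.78 and 0.78.

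Of the other 5 called members, Lyz1 (2.38 ± 0.46, edgeR adjusted p = 0.0198) and Cybb, the catalytic subunit of the phagocyte oxidase (1.82 ± 0.34, adjusted p = 0.0182), each lost the call without WT_EtOH A or B, WT_4OHT B, or FF_4OHT B or C, with adjusted p-values of up to 0.0642 and 0.0606. The adjusted p of Lyz1 over 9 libraries was 0.0715. The others were Csf1r, the receptor for macrophage colony-stimulating factor (1.43, adjusted p = 0.0418), the pore-forming Mpeg1 (1.82, 0.0218) and Mrc1. Over 10 libraries the list again had 8 higher calls, 7 of them the same, with Lgals3 in place of Mrc1. The summed level of the list was 5405 to 6865 CPM in FF_4OHT and 3528 to 4347 CPM in the other 9 libraries. In bulk RNA, more cells of a type and more RNA per cell cannot be told apart.

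Other myeloid genes outside that list lay among the largest differences. Vcan, the matrix proteoglycan versican, was at 284, 408 and 402 CPM in FF_4OHT and at 49.5 to 94.3 CPM elsewhere (2.12 ± 0.34, edgeR adjusted p = 0.0116). Tlr13, an endosomal receptor for bacterial ribosomal RNA, was at 54.3 to 75.5 CPM in FF_4OHT and 11.1 to 38.1 CPM elsewhere (2.19 ± 0.46, adjusted p = 0.0272). Bst1, the myeloid ectoenzyme CD157, rose to 27.9, 45.3 and 47.9 CPM from 6.08 to 15.3 CPM (2.12 ± 0.40, adjusted p = 0.0182). Plekhg1, a pleckstrin homology domain protein, rose to 25.6 to 36.9 CPM from 5.19 to 10.6 CPM (2.14 ± 0.37, adjusted p = 0.0121). Vcan and Plekhg1 held without any library. Bst1 lost its call without FF_4OHT B or C (up to 0.062), and Tlr13 without WT_EtOH A or B, WT_4OHT B, FF_EtOH A or B, or FF_4OHT B or C (up to 0.0816).

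Granule genes of earlier and later neutrophil stages had 0 calls over 12 libraries: 0 of 11 azurophil and 0 of 19 late granule members. All 11 azurophil members were below 0, with a median of -0.55, beside 6422 of 12361 and -0.02 over all tested genes. Elane, neutrophil elastase, was at 2199, 2136 and 2065 CPM in FF_4OHT and at 2923 to 4765 CPM in the other 9 libraries, without overlap, and its difference of -0.78 ± 0.21 did not pass (edgeR adjusted p = 0.0632). S100a9 was at 322 to 566 CPM in FF_4OHT and at 187 to 511 CPM elsewhere (0.57 ± 0.51, adjusted p = 0.568). For the late granule list 1 member was called over 10 libraries, the collagenase Mmp8. The 8 progenitor markers checked against the labelled cell type all had counts, and their summed level was 6127 to 7063 CPM in FF_4OHT and 8002 to 14200 CPM in the other 9 libraries. Elane belongs to both this list and the azurophil list, and its levels given above are a large part of that sum. Of the 8 markers 0 were called and 2 were above 0, with a median of -0.40. Their part in the other results was not tested.

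Of 25 tested NF-kB targets and cytokines 2 were called higher (8%, beside 1.02% of all genes) and 0 lower. The count filter was passed only through FF_4OHT by 2 members, and both calls lay among the other 23. Saa3, an acute-phase apolipoprotein, was at 17.8, 13.5 and 23.5 CPM in FF_4OHT and at 1.85 to 4.48 CPM elsewhere (2.21 ± 0.41, edgeR adjusted p = 0.0171), and only leaving out FF_4OHT C ended its call (0.0584). Ccl6 was at 133, 252 and 256 CPM in FF_4OHT and at 35.3 to 83.1 CPM elsewhere (1.93 ± 0.40, adjusted p = 0.0251). Without WT_EtOH A or B, WT_4OHT B, FF_EtOH A, or FF_4OHT B or C its call was lost, with an adjusted p of up to 0.0779. Of 35 interferon-stimulated members 24 were above 0, with a median of 0.41, and of 19 DNA and RNA sensing members 14, with a median of 0.28, and 0 passed in either. In each of these lists 1 member passed the count filter only through FF_4OHT. Among the others, 23 of 34 and 13 of 18 were above 0, with medians of 0.41 and 0.25. Tmem173, which encodes the DNA-sensing adaptor STING, was at 134 to 157 CPM in FF_4OHT, 126 and 118 CPM in FF_EtOH A and B, 70.6 to 94.6 CPM in 6 others, and 128 CPM in that labelled WT_4OHT C (0.06 ± 0.28, adjusted p = 0.929). Its levels thus followed the line in which each library lies.

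**Figure D4:**
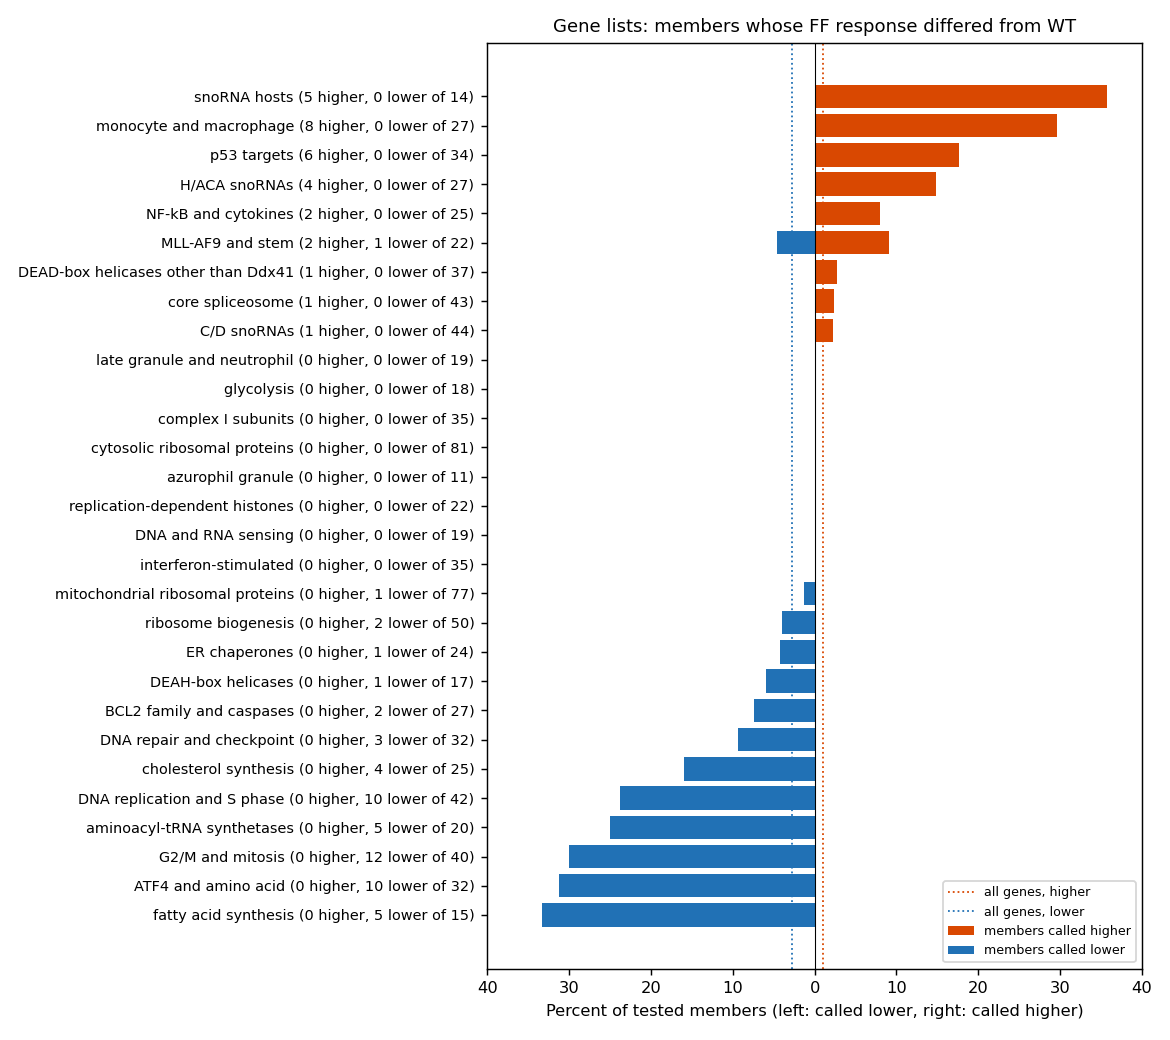
Percent of tested members called higher (right) and lower (left) for each gene list with at least 10 tested members, over 12 libraries; counts stand beside each name and dotted lines mark 1.02% and 2.70% over all tested genes. The lists divide by direction, and MLL-AF9 and stem is the single list with calls both ways.

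Genes of mitosis were lower: 12 of 40 tested members were called lower (30%, beside 2.70% of all genes) and 0 higher. All 40 were below 0, beside 6422 of 12361 tested genes, and the median was -0.54. Ccnb2, cyclin B2, had 140.2, 131 and 134 CPM in WT_EtOH, 132, 132 and 136 CPM in WT_4OHT, 144, 127 and 134 CPM in FF_EtOH, and 82.1, 76.8 and 67.1 CPM in FF_4OHT. The 9 other libraries lay in a narrow band that the FF_4OHT libraries did not reach. The difference was -0.82 ± 0.13 (edgeR adjusted p = 0.00991). Kif20a, a kinesin of cytokinesis, fell to 83.9 to 99.98 CPM from 146 to 183 CPM (-0.83 ± 0.13, adjusted p = 0.0107). Birc5, survivin, fell to 69.7 to 76.9 CPM from 115 to 143 CPM (-0.75 ± 0.12, adjusted p = 0.0121). Ccnb2, Kif20a and Birc5 held without any library. Cdc25c, the phosphatase that activates the mitotic kinase (-0.72 ± 0.14, adjusted p = 0.0198), lost its call without WT_EtOH A or B, WT_4OHT B, or any FF_4OHT library (up to 0.0702). These 4 were also the ones called over 10 libraries, and 6 were called over 9. The 8 others, Cdk1, Ccna2 and Mki67 among them, did not pass over 10 libraries, and of these 8 Cdc20 passed over 9 (adjusted p = 0.0266).

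DNA replication and S phase genes had 10 lower calls among 42 tested members (23.8%, beside 2.70% of all genes) and 0 higher (median -0.30). Rfc5, a subunit of the clamp loader, had 87.0, 92.7 and 85.7 CPM in WT_EtOH, 90.4, 90.3 and 93.3 CPM in WT_4OHT, 102, 91.8 and 88.1 CPM in FF_EtOH and 50.5, 50.7 and 47.3 CPM in FF_4OHT. Again the FF_4OHT libraries lay below 9 overlapping ones (-0.97 ± 0.11, edgeR adjusted p = 0.00344). Tk1, thymidine kinase, fell to 49.6 to 54.6 CPM from 84.8 to 107 CPM (-0.91 ± 0.13, adjusted p = 0.00723). Mcm7, of the replicative helicase, fell to 207 to 228 CPM from 349 to 395.5 CPM (-0.71 ± 0.10, adjusted p = 0.00843). Pold1, the catalytic subunit of DNA polymerase delta, differed by -0.86 ± 0.15 (adjusted p = 0.0126). Rfc5, Tk1, Mcm7 and Pold1 held without any library. Over 10 libraries 8 members were called, 7 of them the same.

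Repair and checkpoint genes had 3 lower calls among 32 tested members (9.38%, beside 2.70% of all genes), with a median of -0.45. Fanca, of the Fanconi core complex, fell to 40.5 to 47.7 CPM from 71.7 to 87.2 CPM (-0.78 ± 0.13, edgeR adjusted p = 0.0116) and held without any library. Rad54l, a motor protein of homologous recombination (-0.75 ± 0.15, adjusted p = 0.0193), and Fancd2, which the Fanconi core ubiquitinates (-0.74 ± 0.18, adjusted p = 0.044), had adjusted p-values of 0.0578 and 0.057 over 10 libraries. Rad54l lost its call without WT_EtOH A or B, WT_4OHT B, FF_EtOH B, or FF_4OHT A or C (up to 0.0673), and Fancd2 without any library except FF_EtOH C (up to 0.108). Replication-dependent histone genes had 0 calls among 22 tested members, with a median of 0.79. Without 1 member that passed the count filter only through FF_4OHT, the median was 0.75. Hist1h4i was at 3.70 to 4.27 CPM in FF_4OHT and at 1.61 to 3.43 CPM elsewhere (1.14 ± 0.30, adjusted p = 0.0609).

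Amino acid metabolism was among the lower groups. Of 32 tested targets of ATF4, the transcription factor of the integrated stress response, and amino acid genes, 10 were called lower and 0 higher (median -0.66). These 10 were 31.2% of the members, beside 2.70% of all genes called lower. Slc1a5, the glutamine and neutral amino acid transporter, had 302, 301 and 317 CPM in WT_EtOH, 286, 327 and 353 CPM in WT_4OHT, 342, 330.5 and 301 CPM in FF_EtOH and 153, 168 and 151 CPM in FF_4OHT. The FF_4OHT libraries lay below all others (-1.11 ± 0.13, edgeR adjusted p = 0.00344). Aldh18a1, which starts proline synthesis from glutamate, fell to 106 to 114 CPM from 195 to 228 CPM (-0.95 ± 0.11, adjusted p = 0.00344). Shmt2, the mitochondrial serine hydroxymethyltransferase, fell to 209.8 to 239 CPM from 369 to 472.5 CPM (-0.94 ± 0.15, adjusted p = 0.0117). Phgdh, the entry enzyme of serine synthesis, fell to 162 to 188 CPM from 291 to 393 CPM (-0.91 ± 0.15, adjusted p = 0.0121). All 4 held without any library, and over 10 libraries 11 members were called, 9 of them the same.

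Bcat1, the cytosolic branched-chain aminotransferase, belongs to both the amino acid list and the MLL-AF9 and stem cell list. It was at 14.7, 14.6 and 10.7 CPM in WT_EtOH, 12.3, 11.9 and 13.4 CPM in WT_4OHT, 15.0, 13.9 and 11.7 CPM in FF_EtOH and 3.78, 3.61 and 1.77 CPM in FF_4OHT. The difference of -2.05 ± 0.35 (edgeR adjusted p = 0.0121) held without any library. Of the 22 tested members of the stem cell list 2 were called higher and 1 lower, with 13 above 0 and a median of 0.05, beside 1.02% and 2.70% called over all genes. The higher ones were Hoxa3 and Hoxa5, homeobox genes that MLL fusions keep active. Hoxa5 was at 67.6 to 78.0 CPM in FF_4OHT and at 32.0 to 46.5 CPM elsewhere (0.95 ± 0.21, adjusted p = 0.0303), and Hoxa3 at 36.0 to 38.5 CPM and 15.96 to 24.6 CPM (1.03 ± 0.21, adjusted p = 0.0232). Hoxa3 lost its call without WT_EtOH B or FF_4OHT B or C (up to 0.0718). Hoxa5 lost it without WT_EtOH A or B, WT_4OHT B, FF_EtOH B, or any FF_4OHT library (up to 0.0888).

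Aminoacyl-tRNA synthetases, which charge tRNAs, had 5 lower calls among 20 tested members (25%, beside 2.70% of all genes), with a median of -0.35. Vars, for valine, fell to 192 to 204 CPM from 327 to 437 CPM (-1.02 ± 0.15, edgeR adjusted p = 0.00839) and held without any library. Cars, for cysteine, differed by -0.69 ± 0.12 (adjusted p = 0.0147), and only leaving out FF_4OHT B ended its call (0.0529). Vars and Cars were the 2 called over 10 libraries. Mars, for methionine (-0.56 ± 0.11), and Gars, for glycine (-0.53 ± 0.12), had adjusted p-values of 0.023 and 0.0345 over 12 libraries and of 0.0639 and 0.0956 over 10. Mars lost its call without any of 7 libraries (WT_EtOH A and B, WT_4OHT B and C and the FF_4OHT libraries), and Gars without any except WT_4OHT A or FF_EtOH A. Of 24 ER chaperones 1 was called lower (4.17%, beside 2.70% of all genes) and 0 higher. It was Sdf2l1, which fell to 120 to 127 CPM from 223 to 270 CPM (-0.86 ± 0.12, adjusted p = 0.00678) and held without any library.

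Lipid synthesis genes were lower where called. Of 15 tested fatty acid synthesis members 5 were called lower (33.3%, beside 2.70% of all genes) and 0 higher (median -0.67). Acaca, acetyl-CoA carboxylase, was at 122, 136 and 124 CPM in FF_4OHT and at 201 to 261 CPM elsewhere (-0.93 ± 0.16, edgeR adjusted p = 0.0121), and it held without any library. Scd2, a stearoyl-CoA desaturase, fell to 747 to 938 CPM from 1328 to 2095 CPM (-1.18 ± 0.23, adjusted p = 0.021). Fads1, a desaturase of polyunsaturated fatty acids, fell to 61.9 to 66.9 CPM from 85.3 to 118 CPM (-0.77 ± 0.14, adjusted p = 0.0137). Leaving out FF_4OHT C ended the call of Fads1 (0.0528), and leaving out WT_EtOH A, FF_EtOH B, or FF_4OHT A or C that of Scd2 (up to 0.0705). Over 10 libraries 6 members were called, the 5 above and Fasn.

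Scd1, the other stearoyl-CoA desaturase, shows how the doubtful libraries enter a difference. It was at 40.1, 50.8 and 36.3 CPM in WT_EtOH, 24.4, 32.1 and 84.9 CPM in WT_4OHT, 70.3, 99.2 and 62.4 CPM in FF_EtOH and 13.9, 20.7 and 15.9 CPM in FF_4OHT. The library labelled WT_4OHT C lay within the range of FF_EtOH, and WT_4OHT A and B lay below WT_EtOH. The difference was -2.35 ± 0.55 over 12 libraries (edgeR adjusted p = 0.0399) and -1.72 over 10 (0.0222), where the WT response went from 0.15 to -0.61. Fads2 was likewise at 143 CPM in that library and at 64.5 and 89.8 CPM in WT_4OHT A and B, with a difference of -1.70 ± 0.38 (adjusted p = 0.0341) and of -1.46 over 10 libraries (0.0231). Over 12 libraries, leaving out any library except WT_4OHT A, WT_4OHT C or FF_EtOH C ended the calls of Scd1 and of Fads2 (up to 0.113 and 0.104).

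Cholesterol synthesis had 4 lower calls among 25 tested members (16%, beside 2.70% of all genes) and 0 higher (median -0.30). Nsdhl, a sterol dehydrogenase, fell to 28.6 to 33.3 CPM from 48.1 to 63.4 CPM (-0.88 ± 0.13, edgeR adjusted p = 0.00897). Tm7sf2, a sterol reductase, was at 15.6, 17.9 and 16.6 CPM in FF_4OHT and at 28.3 to 42.3 CPM elsewhere (-1.24 ± 0.21, adjusted p = 0.0121). Both held without any library. Dhcr7, the last enzyme of cholesterol synthesis, differed by -0.69 ± 0.16 (adjusted p = 0.0381), and leaving out any library except WT_4OHT A or FF_EtOH C ended its call (up to 0.113). Over 10 libraries Dhcr7 did not pass (0.0505). Of 18 glycolysis members 0 were called, with a median of -0.59, and Gapdh reached 4479 CPM in FF_EtOH A and, with the label WT_4OHT C, 3693 CPM in another library, against 2209 to 2862 CPM in the other 10 libraries.

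Other RNA helicases and spliceosome components showed few calls, 1 in each list. These were 5.88% of DEAH-box members (lower), and 2.7% of other DEAD-box and 2.33% of core spliceosome members (higher). Over all genes 2.70% were called lower and 1.02% higher. Of 17 tested DEAH-box helicases Dhx16 alone was called (median -0.04). Of 37 DEAD-box helicases other than Ddx41, Ddx55, a ribosome assembly helicase, was higher at 48.0 to 51.1 CPM in FF_4OHT against 28.3 to 35.6 CPM elsewhere (0.58 ± 0.14, edgeR adjusted p = 0.0456). Of 43 core spliceosome members Prpf3, a protein of the U4/U6 particle, was higher at 124, 122 and 123 CPM in FF_4OHT against 65.8 to 83.7 CPM elsewhere (0.76 ± 0.14, adjusted p = 0.0151). Only leaving out FF_4OHT C ended the call of Prpf3 (0.0517). Ddx55 kept its call without WT_EtOH C, WT_4OHT C or FF_EtOH A and lost it without any other library (up to 0.125). Prpf3 and Ddx55 passed over 10 libraries as well.

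Ribosome biogenesis genes had 2 lower calls among 50 tested members (4%, beside 2.70% of all genes), with a median of -0.17. Polr1a, the largest subunit of RNA polymerase I, which makes precursor ribosomal RNA, fell to 68.2 to 78.7 CPM from 117 to 134.5 CPM (-0.82 ± 0.13, edgeR adjusted p = 0.0107) and held without any library. Nat10, an RNA acetyltransferase, differed by -0.60 ± 0.14 (adjusted p = 0.0408), and leaving out any library except WT_4OHT A or FF_EtOH C ended its call (up to 0.113). Of 81 cytosolic ribosomal protein genes 0 were called, with a median of 0.24, and 76 lay above 0. Of 77 mitochondrial ribosomal protein genes Mrps24 alone was called (1.3% lower, beside 2.70% of all genes). It was lower by -0.83 ± 0.16 (adjusted p = 0.0193), a call lost without WT_EtOH A or B, WT_4OHT B or FF_4OHT B (up to 0.0611). Of 35 complex I subunits 0 were called, with 17 above 0.

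Several of the largest lower differences fell in none of the lists. Ccdc101, an older symbol of Sgf29, which encodes a chromatin reader of the SAGA complex, was at 11.4, 11.9 and 11.6 CPM in FF_4OHT and at 29.1 to 37.8 CPM elsewhere (-1.52 ± 0.19, edgeR adjusted p = 0.00583). Ccdc107, a coiled-coil protein gene, was at 3.19, 4.06 and 4.60 CPM and at 11.8 to 15.7 CPM elsewhere (-1.69 ± 0.24, adjusted p = 0.00741). Matk, a kinase that restrains SRC family kinases, fell to 20.1 to 21.03 CPM from 43.2 to 78.8 CPM (-1.85 ± 0.30, adjusted p = 0.0121). Ccdc101, Ccdc107 and Matk held without any library. Plekhh2 fell to 2.38 to 2.88 CPM from 9.34 to 22.9 CPM (-2.35 ± 0.41, adjusted p = 0.0127), and only leaving out FF_4OHT C ended its call (0.0508).

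Itih5, a hyaluronan-binding protein (-1.65 ± 0.37, edgeR adjusted p = 0.0345), Tmem119, known as a marker of microglia (-1.60 ± 0.38, adjusted p = 0.0411), and Scly, selenocysteine lyase (-1.59 ± 0.39, adjusted p = 0.0465), rested on more libraries. Tmem119 was at 31.7 and 24.8 CPM in FF_EtOH A and B while the library labelled FF_EtOH C had 60.4 CPM, and WT libraries held 47.4 to 62.6 CPM. Scly was at 61.8 to 74.5 CPM in WT libraries other than the library labelled WT_4OHT C, which had 129 CPM. Without those libraries the differences were -1.04 for Tmem119 and -1.41 for Scly, and both were called. Over 12 libraries, Itih5 kept its call only without WT_4OHT C, Tmem119 only without FF_EtOH B or C, and Scly only without WT_4OHT A or FF_EtOH C (adjusted p up to 0.104, 0.113 and 0.125).

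**Figure D5:**
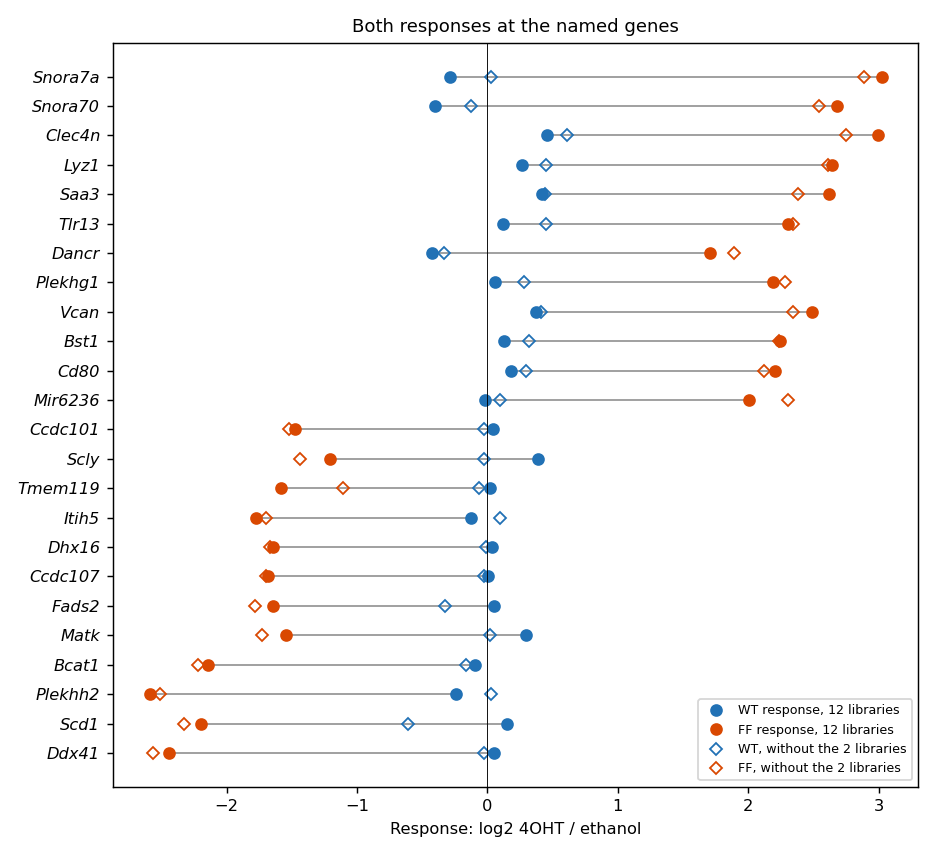
WT and FF responses (log2 of 4OHT over ethanol) of the 12 largest higher and 12 largest lower named genes; filled circles use 12 libraries and open diamonds leave out those labelled FF_EtOH C and WT_4OHT C. Over 12 libraries the FF responses lie between 1.71 and 3.02 in the higher genes and between -2.59 and -1.21 in the lower genes, and the WT responses between -0.43 and 0.46; over 10 libraries the WT responses lie between -0.61 and 0.61.

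Markers of other cell types that the cultures could hold had 0 calls over 12 libraries: 0 of 6 tested mast cell and basophil genes, 0 of 3 erythroid, 0 of 6 platelet, 0 of 5 lymphoid and 0 of 4 stromal and endothelial genes. Of the mast cell and basophil genes 2, and of the lymphoid genes 2, passed the count filter only through FF_4OHT. The hemoglobin genes Hba-a1, Hba-a2, Hbb-bs and Hbb-bt had no count in the 12 libraries, and neither had Cd3e, Cd3g and Ms4a1. The summed lymphoid list was at 11.8 to 15.1 CPM in FF_4OHT and at 17.95 to 28.7 CPM elsewhere. Over 10 libraries Pecam1 was the single call among these lists.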

How the data were processed

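Bulk RNA-seq of 18 libraries was deposited by the authors as 1 table of raw counts per gene symbol, and 12 libraries enter here. The submitters' processing notes name featureCounts 1.5.2 with Subread, HISAT2 2.0.5, FastQC 0.11.7, CASAVA 1.4 and the build mm10. Not given in the sources used here are the strand setting, the annotation and the treatment of reads with several matches. The counts were filtered with filterByExpr (minimum count 10), scaled by TMM and fitted over the 4 groups with edgeR 4.0.16 (robust quasi-likelihood F test, R 4.3.3). The interaction was adjusted by the Benjamini-Hochberg method over all tested genes, at 0.05. CPM values were computed from the deposited counts, and SEs from F. Totals of 24730213 to 39459035 counts make 1 count worth at most 0.0404 CPM. Alternatives used limma 3.58.1 (voom), DESeq2 1.42.0, other scalings, filters and left-out libraries. The fit was tested on simulated data. Of 24062 symbols, 22708 matched exactly 1 gene of GENCODE M21.

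Named are Ddx41 and Dhx16, the 12 largest differences each way that were also called over 10 libraries (at least 10 CPM in a group), up to 4 called members per list with the smallest adjusted p (at least 1 CPM) or else the 2 most abundant, and the 5 largest calls lost or gained over 10 libraries. The members and lists were chosen with earlier results of these data known. Results for 2 genes that this rule selects are not reported here.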

Additional observations from a re-analysis of the deposited data

Results flagged for a closer look

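The responses of the FF and WT lines to 4OHT differed, by edgeR's test of the difference itself with adjustment over all 12361 genes, at 126 genes where FF lay above WT and at 334 where it lay below. Of the genes given here, 32 were higher and 43 lower. The values below are log2 differences of the 2 responses over 12 libraries, ordered by size. Most of the genes are described with their values by library in the report, and no explanation of any of them was tested.

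The largest higher differences were at Snora69 (4.09), Snora7a (3.31), Snora70 (3.08), Snora16a (2.99), Clec4n (2.54), Lyz1 (2.38), Snord32a (2.36), Mrc1 (2.21), Saa3 (2.21), Tlr13 (2.19) and Dancr (2.14). Of these, Snora69 rests on few reads, passed the count filter only through its level in FF_4OHT and had to differ. Next came Plekhg1 (2.14), Bst1 (2.12), Vcan (2.12), Phlda3 (2.04), Cd80 (2.02), Mir6236 (2.02), Ccl6 (1.93), Lyz2 (1.93), Snhg1 (1.89), Cybb (1.82) and Ctss (1.81). The smaller ones were at Slfn5 (1.62), Snhg12 (1.50), Zmat3 (1.33), Snhg3 (1.25), Gas5 (1.12), Hoxa3 (1.03), Hoxa5 (0.95), Ccng1 (0.77), Prpf3 (0.76) and Ddx55 (0.58).

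The largest lower differences were at Ddx41 (-2.49), Plekhh2 (-2.35), Scd1 (-2.35), Bcat1 (-2.05), Matk (-1.85), Ptpru (-1.71), Fads2 (-1.70), Ccdc107 (-1.69), Dhx16 (-1.68), Itih5 (-1.65), Tmem119 (-1.60) and Scly (-1.59). Then followed Ccdc101 (-1.52), Tm7sf2 (-1.24), Scd2 (-1.18), Slc1a5 (-1.11), Vars (-1.02), Rfc5 (-0.97), Aldh18a1 (-0.95), Shmt2 (-0.94), Acaca (-0.93), Phgdh (-0.91) and Tk1 (-0.91). Smaller differences were found at Nsdhl (-0.88), Pold1 (-0.86), Sdf2l1 (-0.86), Kif20a (-0.83), Mrps24 (-0.83), Ccnb2 (-0.82), Polr1a (-0.82), Fanca (-0.78), Fads1 (-0.77), Birc5 (-0.75) and Rad54l (-0.75). The smallest were at Fancd2 (-0.74), Cdc25c (-0.72), Mcm7 (-0.71), Cars (-0.69), Dhcr7 (-0.69), Nat10 (-0.60), Bid (-0.56), Mars (-0.56) and Gars (-0.53).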

How the results depend on the processing

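The 126 higher and 334 lower calls became 365 and 697 with DESeq2, 6 and 36 at an adjusted p of 0.01, and 78 and 87 with a limit of 2-fold. Fitted with all 18 libraries, 53 were higher and 243 lower. Leaving out each library in turn gave 25 to 140 higher and 85 to 319 lower, both lowest without FF_4OHT C. The 2286 FF calls became 3631 over 9 libraries, 927 at 0.01, 603 with the 2-fold limit, and 1039 to 2769 with a library left out. WT calls went from 0 to 3 with DESeq2 and 9 over 9 libraries, and stayed at 0 with each library left out. Deviations of same-lettered libraries correlated at 0.0683 to 0.203 in FF, -0.0331 to 0.424 in WT, and -0.00635 to 0.353 between FF and WT, so not every pair exceeded 0.1, and the labels do not pair the letters. A replicate block of letters within each line gave 205 higher and 464 lower calls, and letters across the 12 libraries 185 and 396.

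Of the 77 called genes that the naming rule selects, each kept its sign in every setting run, and 77 kept the call with DESeq2, 75 with its size factors, 73 with library size alone, 70 with voom, 70 without a filter, 74 at 5 CPM, 50 with 18 libraries, and 66 over 10. Signs turned only in named genes that were not called. Over 9 libraries Tfrc was at 0.102, Rpsa at -0.113 and Rplp0 at -0.018. Itgb3 was at 0.079 with voom and 0.047 with the block within line, and Lepr at -0.185 over 10 libraries. With a library left out, Hist1h1c ran from -0.444 to 0.138, Tmem173 from -0.128 to 0.268, Mcpt8 from -0.529 to 0.038, Tfrc from -0.180 to 0.220, Itgb3 from -0.263 to 0.156, Lepr from -0.347 to 0.561 and Rpsa from -0.088 to 0.294. The cause was not tested.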

Other observations

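The 6 heterozygous libraries give the same treatment in cells with 1 floxed copy. There 0 genes were called in edgeR. Of the 121 higher calls tested in them, 80 were above 0 (66.1%, median log2 response 0.12). Of the 334 lower calls, 204 were also above 0 (61.1%, median 0.05), beside 52.5% of all genes (median 0.01). At Ddx41 the heterozygous response was -0.60 and at Dhx16 0.10, neither of them called.

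Over 9 libraries the WT response had 9 calls in edgeR, all lower, named after their values were seen. They were Thbs1 (-5.53), Tgm2 (-3.66), Bpifc (-3.62), Myl10 (-2.96), Tgfbr3 (-2.42), N4bp3 (-1.84), Mreg (-1.41), Fgd4 (-1.36) and Tex2 (-1.24). Those calls rest on 2 libraries each of WT_EtOH and WT_4OHT.

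Among called protein-coding genes, lower ones had a median of 12 exons and 62.6 CPM. Higher ones had 9 exons and 30.3 CPM, beside 9 exons and 33.5 CPM over all tested. The power of a count test grows with the count, and its part in this was not tested.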
